A study of Homo sapiens with 66 samples.

Results

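The comparison described here is the response of control-guide A375 cells to vemurafenib, read as 3 libraries of cells given the drug against 3 libraries of cells given its solvent DMSO. These 6 libraries are 6 of the 66 in the series and 6 of the 42 in the vemurafenib experiment, and they were chosen by their labels alone. A375 is an established human melanoma cell line that carries an activating mutation in the kinase BRAF. The cells were obtained from ATCC, grown in DMEM with 10% FBS, and carried a guide RNA against GFP, a jellyfish gene that human cells lack, so their genotype is labelled WT. In the vemurafenib group they received 1 µM vemurafenib for 24 hours before polyadenylated RNA was sequenced, and in the DMSO group the solvent for the same time. The other 36 libraries of the experiment hold cells with a guide against MED12, MED19 or MED23, subunits of the Mediator complex of transcription. For each subunit 12 libraries (both of its guides, with and without the drug) are compared with the control-guide libraries at the end. All 42 libraries were fitted together. The other 36 therefore also enter the filter on low counts, the scaling and the spread per gene in every test.

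Vemurafenib blocks the kinase activity of mutant BRAF and thereby the MEK and ERK kinases below it, which in these tumour cells drive growth and division. ERK signalling also feeds the machinery of biosynthesis: it raises ribosome production, nucleotide and glucose metabolism and the secretion of growth factors and proteases, and it sets the balance of pro-survival and pro-death BCL2 proteins. Melanoma cells descend from the neural crest, the embryonic tissue that also gives Schwann cells, and under BRAF inhibition they are known to change their differentiation state. Lists of direct ERK targets, cell cycle genes and pigment genes are left aside here, and the account is of the other functions. These lists do not hold every such gene. Some named below, such as RRM2, TYMS and TK1, are also tied to the cell cycle.

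Counts assigned to genes came to 99.1 M to 123.2 M in the vemurafenib libraries and 112.5 M to 196.7 M in the DMSO libraries. Levels are given as CPM, a gene's count per M (mega) counts of its library, after TMM scaling, which sets the libraries to a common level through the bulk of their genes. A gene rose or fell where its adjusted p was under 0.05 in edgeR's quasi-likelihood test with Benjamini-Hochberg adjustment over 27453 genes; a log2 fold change of 1 is a 2-fold change, and SE is its standard error. By that rule 9839 genes rose, 35.8% of those tested, and 8322 fell, 30.3%; with a change of at least 2-fold besides, 5073 genes were higher (18.5%) and 3081 lower (11.2%). So large a share of the transcriptome moved that a gene list is read below against these shares and against the median of all genes tested, a log2 fold change of 0.11. All genes tested include many rare and non-coding ones. Well-expressed protein-coding genes, here the 11173 whose mean CPM had a log2 of at least 2, rose in 38.4% and fell in 50.3%, with a median of -0.098. For lists made mostly of such genes these are the closer shares. Scaling by total counts alone shifted the median gene by 0.19 on the log2 scale and set 72.3% of the 2-fold calls on the higher side, against 62.2% with TMM; it turned the median of 4 of the 49 lists described here, which are named where they occur. Nothing in the labels tells if the replicates came from cultures of their own. The p-values then measure the spread between replicate libraries, estimated over all 42 libraries fitted, and this spread may be technical. In bulk RNA, fewer cells of a kind and less RNA per cell cannot be told apart.

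The libraries read as melanoma cells. SOX10, a neural crest transcription factor, averaged 1053 CPM in vemurafenib cells and 770.5 CPM in DMSO cells, and the 8 melanoma markers together summed to 1934 to 2008 CPM with vemurafenib and 1488 to 1571 CPM with DMSO. The 8 epithelial markers summed to at most 30.4 CPM with vemurafenib and 23.8 CPM with DMSO, the 8 fibroblast markers to at most 27.7 CPM with vemurafenib and 14.0 CPM with DMSO, the 5 measured blood markers to at most 11.4 CPM with vemurafenib and 17.0 CPM with DMSO, and the 7 endothelial markers to at most 9.20 CPM with vemurafenib and 4.78 CPM with DMSO. Of these lineages' defining genes, CDH1 of epithelial cells averaged 0.0229 CPM with vemurafenib and 0.00208 CPM with DMSO, and CDH5 of endothelial cells 0.102 CPM with vemurafenib and 0.106 CPM with DMSO; CD3E and HBB of blood cells did not pass the filter on low counts. Mitochondrial genes took 2.42% to 2.77% of counts in vemurafenib libraries and 1.15% to 1.23% in DMSO libraries. The part of that share in the results below was not tested.

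Genes for the making of ribosomes were lower throughout. All 38 ribosome biogenesis factors tested fell and none rose, with a median log2 fold change of -1.46; their summed level was 4420 to 4460 CPM in vemurafenib cells and 10860 to 11210 CPM in DMSO cells. DKC1, the pseudouridine synthase dyskerin that modifies ribosomal RNA (X chromosome, 154762742 to 154777689; GRCh38 coordinates from GENCODE 29, here and below), measured 60.1, 62.5 and 60.3 CPM in the 3 vemurafenib libraries and 282.9, 272.8 and 269.2 CPM in the 3 DMSO libraries, a log2 fold change of -2.17 (SE 0.0306, adjusted p = 5.19e-46). The 2 groups lay far apart, with no vemurafenib library near any DMSO library. LYAR, a nucleolar growth factor, fell by 2.64 on the log2 scale, TCOF1, the nucleolar protein treacle, fell by 2.15, and NOP16, a nucleolar protein of the large subunit precursor, fell by 2.14.

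The ribosome's own proteins did not follow. Of 77 cytosolic ribosomal protein genes tested, 20 rose and 36 fell with a median of -0.05, and under scaling by total counts 50 rose and 14 fell, so no direction of this family is given. Among its lowest members RPL17 at -1.40 and RPS26 at -0.92 have near-identical copies or read-through neighbours between which counts can be split. The proteins of the mitochondrial ribosome, encoded in the nucleus, fell in 67 of 78 genes and rose in 9, with a median of -0.56; MRPL3 fell by 1.58 and MRPL17 by 1.54 on the log2 scale. Against this, all 13 protein-coding genes of the mitochondrial genome rose, led by the cytochrome oxidase subunits MT-CO2 at 1.27 and MT-CO1 at 1.10. Their nuclear partners in the respiratory chain, 79 genes, split into 12 that rose (15.2%) and 44 that fell (55.7%) with a median of -0.15, and into 33 and 25 under scaling by total counts. Of well-expressed protein-coding genes 38.4% rose and 50.3% fell.

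**Figure D1:**
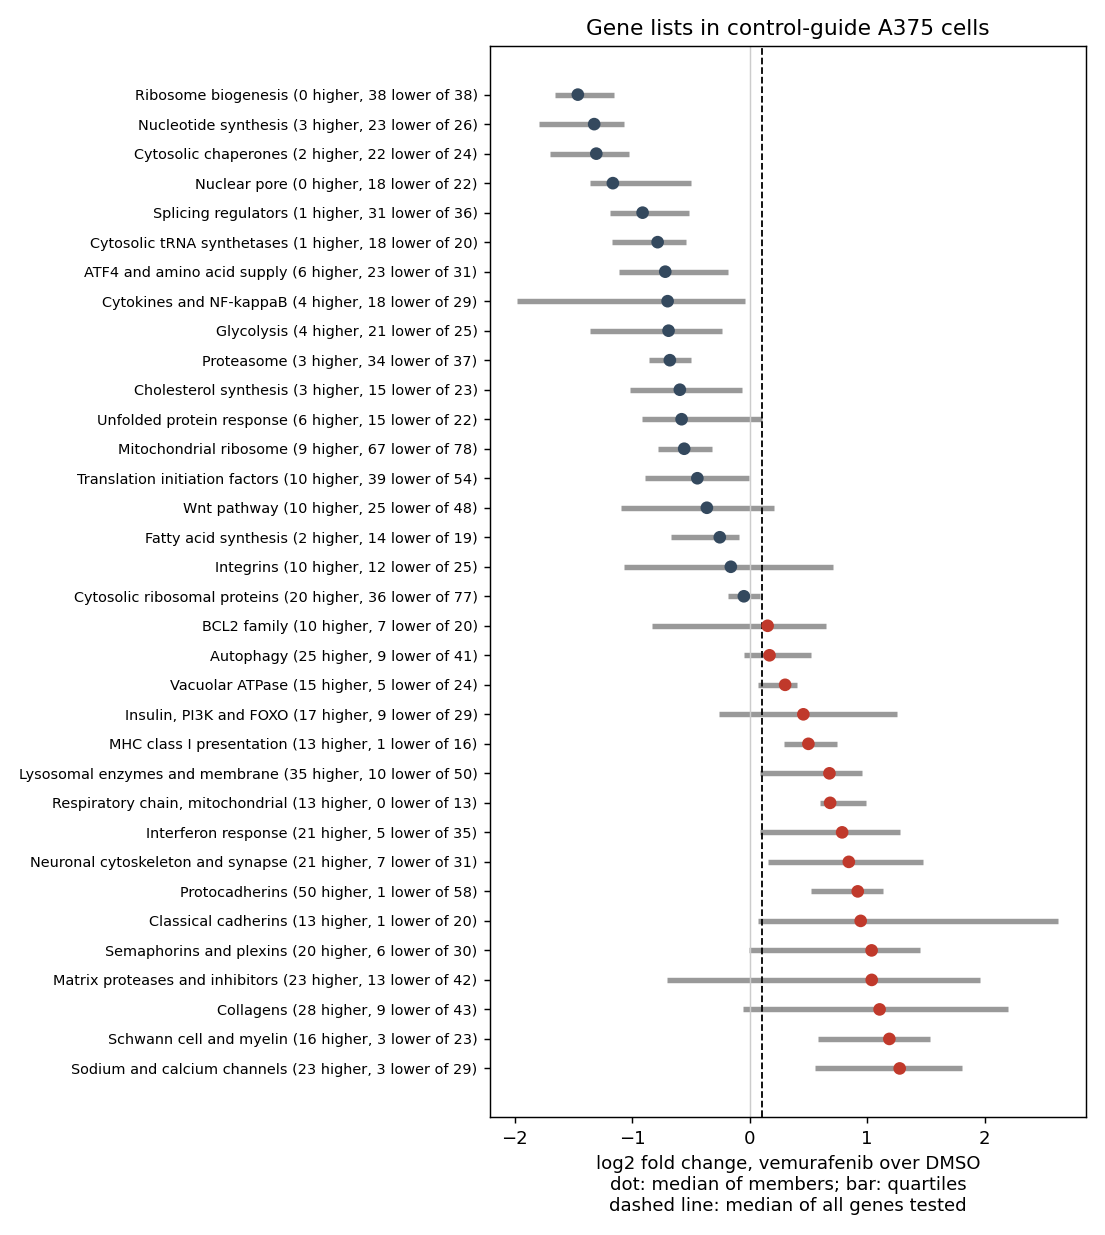
Median log2 fold change, vemurafenib over DMSO, of 34 gene lists in control-guide cells (dots; bars run from the lower to the upper quartile of members; the dashed line is the median of all genes tested). Ribosome biogenesis lies lowest at -1.46 and sodium and calcium channels highest at 1.28.

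Genes that feed and equip translation were lower as well. Among cytosolic tRNA synthetases, which load amino acids onto tRNAs, 18 of 20 fell and 1 rose (median -0.78), with the 2 chains of the phenylalanine enzyme, FARSB at -1.98 and FARSA at -1.38, lowest. Of 54 translation initiation factors and their regulators, 39 fell and 10 rose (median -0.45). EIF5A, which carries ribosomes over proline stretches, measured 369.3, 348.5 and 373.1 CPM in vemurafenib cells and 1108, 1082 and 1045 CPM in DMSO cells (log2 fold change -1.57, SE 0.0313, adjusted p = 7.36e-40). Each vemurafenib value was well below each DMSO value. EIF4EBP1, an inhibitor of the cap-binding factor eIF4E, fell by 2.09 on the log2 scale.

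Genes of amino acid supply that the stress factor ATF4 is known to drive mostly fell: 23 of 31 were lower and 6 higher (median -0.72). The lowest were the mitochondrial folate enzyme MTHFD2 at -2.41, the arginine and lysine carrier SLC7A1 at -2.36 and the glutamine carrier SLC38A1 at -2.29. ATF3, a transcription factor that ATF4 induces under stress, went the other way. It measured 32.8, 33.0 and 30.8 CPM in vemurafenib cells and 2.64, 2.71 and 2.59 CPM in DMSO cells (log2 fold change 3.60, SE 0.0747, adjusted p = 3.56e-39). DDIT3, the stress factor CHOP, and SESN2 rose by less, 0.66 and 0.65. In the unfolded protein response of the endoplasmic reticulum, 15 of 22 genes fell and 6 rose (median -0.58); the lumenal chaperones HSPA5 (BiP) and HSP90B1 fell by 1.11 and 1.13 on the log2 scale.

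Cytosolic chaperones fell nearly as a block, 22 of 24 genes with a median of -1.31, and their summed level was 6681 to 6738 CPM in vemurafenib cells and 18670 to 19240 CPM in DMSO cells. HSPA8, the constitutive Hsp70 that folds newly made proteins (chromosome 11, 123057489 to 123063230), had the lowest fold change among them. It measured 470.4, 480.6 and 484.5 CPM in vemurafenib libraries and 3068, 3137 and 2963 CPM in DMSO libraries, a log2 fold change of -2.68 (SE 0.0316, adjusted p = 5.38e-49). HSPA1A and HSPA1B, the near-identical stress-inducible Hsp70 genes between which reads cannot be assigned with certainty, stood at -2.53 and -2.58, and the mitochondrial co-chaperonin HSPE1 at -2.04. The 2 that rose were small heat shock proteins, HSPB8 by 0.36 and HSPB1 by 0.14. Proteasome subunits fell in 34 of 37 genes (median -0.68), with the lid deubiquitinase PSMD14 at -1.37. The 3 subunits that rose were PSMB10 at 1.30, PSMB9 at 0.57 and PSMB8 at 0.35, which together are the catalytic subunits of the immunoproteasome, the form that cuts peptides for antigen presentation.

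Nucleotide synthesis was lower in 23 of 26 genes (median -1.32). CTPS1, which makes CTP, measured 43.3, 41.1 and 41.0 CPM in vemurafenib cells and 183.9, 189.5 and 179.9 CPM in DMSO cells (log2 fold change -2.14, SE 0.0364, adjusted p = 9.51e-43). Every vemurafenib value lay far below every DMSO value. RRM2, TYMS and TK1, whose levels are known to follow S phase, fell by 4.71, 2.24 and 2.21 on the log2 scale; IMPDH2, of guanine nucleotide synthesis, rose by 0.59, and RRM2B, a ribonucleotide reductase subunit of resting cells, by 0.47. RNA handling moved the same way: 31 of 36 splicing regulators fell (median -0.91), among them the serine-arginine factors SRSF7 at -1.87, SRSF6 at -1.61, SRSF3 at -1.53 and SRSF1 at -1.52, and 18 of 22 nuclear pore genes fell with none higher (median -1.16; NUP35 -1.96, NUP205 -1.81). MYC, the transcription factor that is known to drive many of these genes, fell by 3.26 on the log2 scale, and its antagonist MXD4 rose by 1.47.

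**Figure D2:**
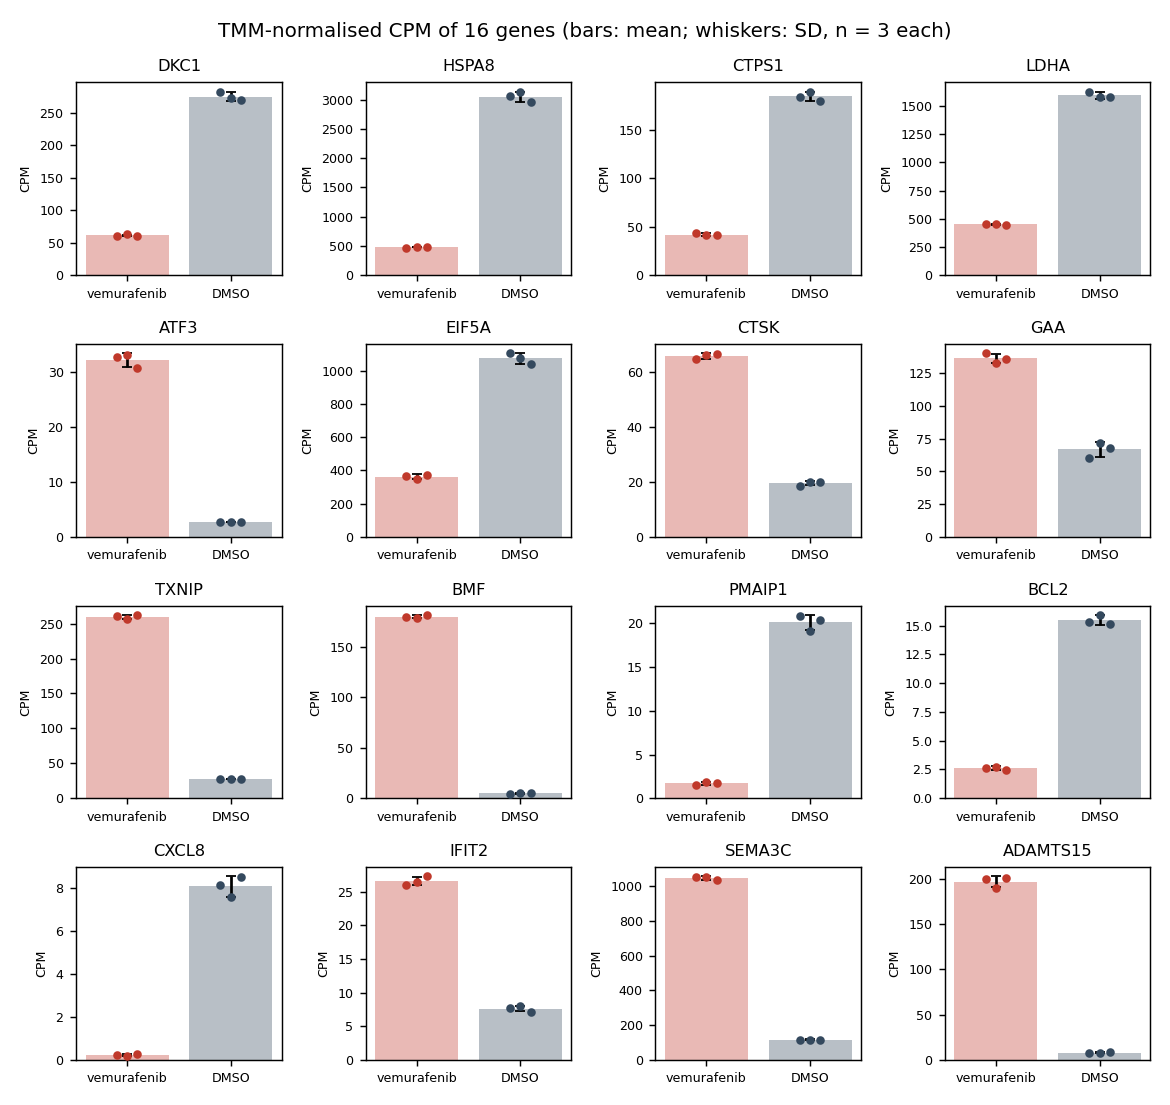
TMM-normalised CPM of 16 genes in each library, vemurafenib left and DMSO right in each panel (points: libraries; bars: means; whiskers: SD, n = 3 each; each axis starts at 0). The groups do not overlap in any panel; HSPA8 lies between 470.4 and 484.5 CPM with vemurafenib and between 2963 and 3137 CPM with DMSO.

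Glycolysis was lower in 21 of 25 genes (median -0.69). LDHA, which turns pyruvate into lactate, measured 451.6, 450.0 and 446.5 CPM in vemurafenib cells and 1629, 1579 and 1579 CPM in DMSO cells (log2 fold change -1.83, SE 0.0258, adjusted p = 5.19e-46). PDK1, which holds pyruvate out of mitochondria, fell by 1.68, the first enzyme HK2 by 1.49 and the glucose carrier SLC2A3 by 1.47 on the log2 scale, while PFKFB2, which makes an activator of phosphofructokinase, rose by 1.00. In cholesterol synthesis and uptake 15 of 23 genes fell and 3 rose (median -0.59). The members did not move as one: the sterol reductase DHCR7 fell by 1.49, but the sterol reductase TM7SF2 rose by 2.28. Of 19 fatty acid synthesis genes 14 fell and 2 rose, with FASN at -1.13 and ACACB, the mitochondrial acetyl-CoA carboxylase, at 1.34. Among 40 genes of fatty acid uptake and oxidation 23 rose and 12 fell; beside the fatty acid receptor CD36, the short-chain dehydrogenase ACADS rose by 1.82, and the coactivator PPARGC1B fell by 2.12 on the log2 scale.

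Lysosomal genes were among the functions that were higher. Of 50 enzymes and membrane proteins 35 rose and 10 fell (median 0.68), and their summed level was 6102 to 6249 CPM with vemurafenib and 4551 to 4626 CPM with DMSO. Many lysosomal promoters are known to carry the palindrome CACGTG, the core of the element that the transcription factors TFEB, TFE3 and MITF bind. In RefSeq's promoter table (GRCh38.p14), the 250 bases before the annotated start held CACGTG in 1772 of 27305 promoters, 6.49%. Of the 32 lysosomal members with an entry, 9 held it (28.1%), and so did 4 of 17 for the proton pump, 3 of 36 for autophagy, 3 of 32 for ribosome biogenesis and 3 of 22 for cytosolic chaperones. The motif reads alike on both strands, and it was picked after the shares of several short motifs had been seen. Promoter stretches of 5 lysosomal genes are shown because they hold the motif and lie outside annotated exons but for at most 5 bases. This holds for the stretches shown alone: another motif stretch of CTSF holds 52 exon bases and another of GAA 25. The CTSF stretch shown lies within an annotated gene over all its 86 bases. Capitals mark CACGTG, and each stretch runs 5′ to 3′ on the gene's strand.
GAA, chr17:80101465-80101550, + strand: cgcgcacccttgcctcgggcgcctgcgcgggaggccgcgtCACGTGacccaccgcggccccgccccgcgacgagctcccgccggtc
NEU1, chr6:31862902-31862987, - strand: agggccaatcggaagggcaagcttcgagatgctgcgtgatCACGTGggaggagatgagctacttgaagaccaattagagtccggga
CTSF, chr11:66568612-66568697, - strand: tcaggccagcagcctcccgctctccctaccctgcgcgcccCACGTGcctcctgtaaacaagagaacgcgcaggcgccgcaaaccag
LAMP1, chr13:113297023-113297108, + strand: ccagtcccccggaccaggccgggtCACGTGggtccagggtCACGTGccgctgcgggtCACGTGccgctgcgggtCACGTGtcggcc
MCOLN1, chr19:7522543-7522623, + strand: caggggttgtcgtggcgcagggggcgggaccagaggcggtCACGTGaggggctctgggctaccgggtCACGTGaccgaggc

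These 5 genes did not respond alike. CTSF, a cysteine protease, measured 94.3, 99.6 and 100.8 CPM in vemurafenib cells and 37.3, 40.2 and 40.7 CPM in DMSO cells (log2 fold change 1.32, SE 0.0471, adjusted p = 2.96e-29). The groups were well separated. GAA, the acid glucosidase that degrades glycogen, rose by 1.03 and NEU1, a sialidase, by 0.80. LAMP1, a main protein of the lysosomal membrane with 4 copies of the motif in the stretch shown, rose by 0.18. MCOLN1, the lysosomal calcium channel with 2 copies, had a log2 fold change of 0.09 (SE 0.0555, adjusted p = 0.159), and its vemurafenib libraries at 22.4, 19.6 and 21.5 CPM overlapped its DMSO libraries at 17.9, 21.0 and 20.7 CPM.

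The lysosomal genes that moved most were proteases and lipid or sulfate hydrolases. CTSK, a collagen-degrading cathepsin (chromosome 1, 150796208 to 150808323), measured 64.7, 66.3 and 66.6 CPM in vemurafenib cells and 18.5, 20.0 and 19.9 CPM in DMSO cells (log2 fold change 1.76, SE 0.0519, adjusted p = 1.02e-32), while CTSO rose by 2.49, SMPD1, the acid sphingomyelinase, by 1.63, and ARSA, the sulfatide-cleaving arylsulfatase, by 1.45. The cathepsins CTSC and CTSZ were lower: CTSC fell by 1.23 and CTSZ fell by 1.12 on the log2 scale. Subunits of the proton pump that acidifies lysosomes rose in 15 of 24 genes and fell in 5 (median 0.30), and autophagy genes rose in 25 of 41 and fell in 9 (median 0.17). MAP1LC3A, an LC3 protein of the autophagosome membrane, rose by 1.76, and the autophagy receptor OPTN by 1.24; BNIP3, a mitophagy receptor, fell by 1.04 on the log2 scale.

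**Figure D3:**
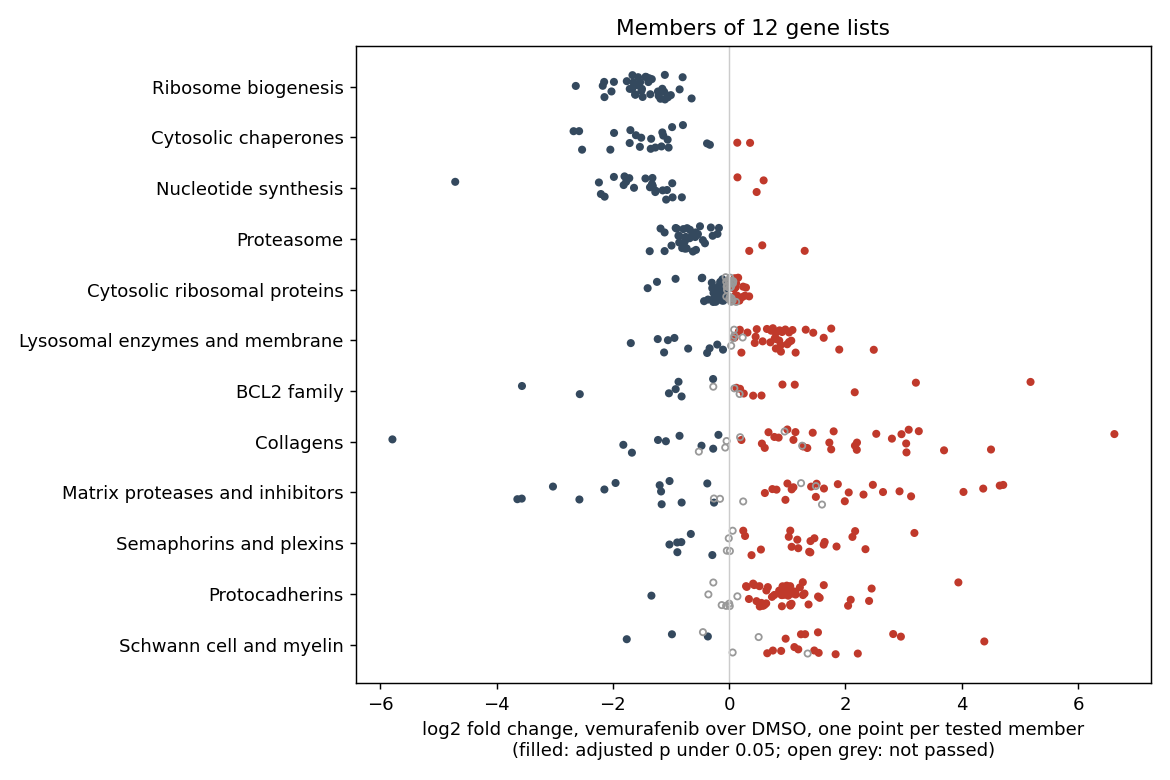
Log2 fold change, vemurafenib over DMSO, of each tested member of 12 gene lists (filled points: adjusted p under 0.05, red higher and dark lower; open grey points: not passed). Ribosome biogenesis lies wholly below 0, cytosolic ribosomal proteins crowd around 0, and collagens spread on both sides of it, up to 6.62 for COL21A1.

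In the list of insulin substrates, the PI3K pathway, FOXO factors and genes these are known to control, which holds both promoters and inhibitors of the signal, 17 of 29 genes rose and 9 fell (median 0.46). TXNIP, which limits glucose uptake (chromosome 1, 145992435 to 145996600), measured 260.6, 256.7 and 262.2 CPM in vemurafenib cells and 27.7, 28.1 and 28.0 CPM in DMSO cells (log2 fold change 3.22, SE 0.0605, adjusted p = 6.37e-41). SESN3, an inhibitor of mTORC1, rose by 2.93, and PIK3R1, the regulatory subunit of PI3K, by 1.51, while the insulin receptor substrate IRS1 fell by 1.61 on the log2 scale. Receptor tyrosine kinases rose in 17 of 34 genes and fell in 11; NTRK2, the receptor of BDNF, rose by 3.72 and the collagen receptor DDR1 by 1.77, and ROR1 fell by 1.75 on the log2 scale. Of 32 growth factor ligands 11 rose and 14 fell, and under scaling by total counts 14 rose and 13 fell, with a median of -0.10 that became 0.10, so no direction of this list is given. TGFA, a ligand of EGFR, fell by 3.12 on the log2 scale to 84.7 to 88.0 CPM in vemurafenib libraries, against 741.0 to 762.0 CPM in DMSO libraries, and FGF1 rose by 2.77.

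In the BCL2 family, 10 of 20 genes rose and 7 fell, and the members with the largest changes did not share a role. BMF, a BH3-only protein that promotes cell death (chromosome 15, 40087890 to 40108892), measured 178.9, 178.7 and 181.5 CPM in vemurafenib cells and 4.52, 5.38 and 4.84 CPM in DMSO cells (log2 fold change 5.18, SE 0.0576, adjusted p = 5.89e-50), and HRK, also BH3-only, rose by 2.16. PMAIP1, the BH3-only protein NOXA, measured 1.57, 1.86 and 1.69 CPM in vemurafenib cells and 20.8, 19.2 and 20.4 CPM in DMSO cells (log2 fold change -3.56, SE 0.0728, adjusted p = 2.05e-39). So within the BH3-only proteins the groups were cleanly separated in both directions. Of the pro-survival members BCL2 fell by 2.57 and MCL1 by 0.92 on the log2 scale.

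Inflammatory mediators and antigen presentation moved apart. Among 29 cytokines and NF-kappaB genes 18 fell and 4 rose (median -0.70). CXCL8, the neutrophil-attracting interleukin 8, measured 0.204, 0.183 and 0.275 CPM in vemurafenib cells and 8.15, 7.55 and 8.48 CPM in DMSO cells (log2 fold change -5.17, SE 0.18, adjusted p = 9.52e-30); CXCL1 fell by 2.58 and LIF by 2.13 on the log2 scale, and NFKBIA, the inhibitor of NF-kappaB, rose by 1.30. Interferon-responsive genes rose in 21 of 35 and fell in 5 (median 0.79), among them IFIT2 at 1.80 (26.0 to 27.3 CPM with vemurafenib and 7.17 to 7.98 CPM with DMSO), IFITM1 at 1.56, HERC6 at 1.53 and IFIT3 at 1.51. In MHC class I presentation 13 of 16 genes rose and 1 fell (median 0.50), with a small change in the light chain of the presenting molecule (B2M 0.13, a call that ends under DESeq2's size factors or without vemurafenib library 1 or 2 or DMSO library 2 or 3), 0.93 for the loading chaperone TAPBP and -0.91 for the peptide transporter subunit TAP2. NT5E, the surface enzyme CD73 that makes adenosine, fell by 3.49 on the log2 scale. Of the 26 immune surface molecules it is listed with 7 rose (26.9%) and 14 fell (53.8%), against 38.4% and 50.3% of well-expressed protein-coding genes.

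Genes of the extracellular matrix changed in both directions. Collagens rose in 28 of 43 genes and fell in 9 (median 1.11). COL21A1, a fibril-associated collagen (chromosome 6, 56056590 to 56394094), measured 59.2, 59.7 and 58.8 CPM in vemurafenib cells and 0.674, 0.605 and 0.547 CPM in DMSO cells (log2 fold change 6.62, SE 0.14, adjusted p = 8.44e-39); COL14A1 rose by 3.70, COL11A2 by 3.26 and COL11A1 by 3.09. The basement membrane chain COL4A1 at -1.22 and the beaded filament chain COL6A3 at -1.67 were among the 9 that fell; other chains of both kinds rose. Among laminins, the adhesive proteins of the basement membrane, 7 of 12 rose and 4 fell, with LAMA2 at 3.26. Matrix proteases and their inhibitors rose in 23 of 42 and fell in 13 (median 1.04). ADAMTS15, a protease that cuts matrix proteoglycans, measured 199.3, 190.2 and 201.0 CPM in vemurafenib cells and 7.26, 7.95 and 8.15 CPM in DMSO cells (log2 fold change 4.65, SE 0.0573, adjusted p = 2.28e-48), the membrane protease MMP15 rose by 2.65, and the protease inhibitor TIMP3 fell by 2.15 on the log2 scale. Integrins, the receptors for this matrix, split into 10 that rose and 12 that fell with a median of -0.16, which was 0.03 under scaling by total counts. ITGB3, the beta chain of the vitronectin receptor, fell by 3.03 on the log2 scale to 23.7 to 25.0 CPM in vemurafenib libraries, against 195.2 to 203.7 CPM in DMSO libraries, and ITGA4, part of a fibronectin receptor, rose by 1.61.

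Several families best known from nerve and glia were mostly higher. Of 23 Schwann cell and myelin genes 16 rose and 3 fell (median 1.19). CDH19, a cadherin of Schwann cell precursors, measured 225.6, 227.7 and 226.3 CPM in vemurafenib cells and 81.0, 76.3 and 76.7 CPM in DMSO cells (log2 fold change 1.54, SE 0.0510, adjusted p = 1.17e-30). Each vemurafenib value lay well above each DMSO value. The lipid carrier APOE rose by 1.53, and POU3F2, a neural transcription factor also known as BRN2, fell by 1.76 on the log2 scale. Semaphorins and plexins, a family of guidance signals and their receptors, rose in 20 of 30 genes and fell in 6 (median 1.04). SEMA3C measured 1054, 1050 and 1035 CPM in vemurafenib cells and 116.6, 112.1 and 116.3 CPM in DMSO cells (log2 fold change 3.19, SE 0.0372, adjusted p = 3.11e-49), and PLXNB3 rose by 2.34 and SEMA6A by 2.17.

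Adhesion molecules and ion channels of excitable cells followed. Protocadherins rose in 50 of 58 genes and fell in 1 (median 0.92), with PCDH7 at 2.41 and PCDH10 at 2.05; the clustered genes among them share exons, so counts between neighbours are uncertain. The exception was PCDH9 at -1.34. Classical cadherins rose in 13 of 20 and fell in 1 (CDH10 2.86). Sodium and calcium channel subunits rose in 23 of 29 and fell in 3 (median 1.28), CACNA1D, a neuronal and endocrine calcium channel, by 2.29 and the neuronal sodium channel SCN2A by 1.38. Potassium channels split, with 29 of 78 higher (37.2%, near the 35.8% of all genes tested) and 16 lower (20.5%). KCNJ10, an inward rectifier of glia, rose by 4.13, and KCNQ5 fell by 3.71 on the log2 scale. Many members of these families were rare: the log2 of the mean CPM was at least 2 for 16 of 78 potassium channels, 7 of 29 sodium and calcium channels and 6 of 20 classical cadherins. Of 31 neuronal cytoskeleton and synapse genes 21 rose and 7 fell (median 0.84); the glutamate receptor subunit GRIK2 rose by 2.38, and the synaptic fusion protein STX1A fell by 2.24 on the log2 scale.

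Signals of development changed in both directions. The Wnt pathway held 25 of 48 genes that fell (52.1%) and 10 that rose (20.8%), with a median of -0.36. Of well-expressed protein-coding genes 50.3% fell and 38.4% rose. The transcription factor LEF1 fell by 2.43 and the secreted Wnt inhibitor SFRP1 by 2.44 on the log2 scale, while the secreted inhibitor DKK3 and the receptor LGR4 rose by 2.79 and 2.62. In the TGF-beta and BMP list 24 of 52 rose and 21 fell. FST, the secreted activin inhibitor follistatin, measured 9.16, 8.56 and 9.24 CPM in vemurafenib cells and 208.2, 210.2 and 209.6 CPM in DMSO cells (log2 fold change -4.54, SE 0.0769, adjusted p = 8.83e-43), and the activin chain INHBA fell by 2.54 on the log2 scale. ID2, an inhibitor of basic helix-loop-helix factors, rose by 3.12, and ID4 fell by 2.29 on the log2 scale. Of nuclear receptors, NR2F1, a neural crest regulator, rose by 3.25 and the retinoic acid receptor RARB by 2.80, and the vitamin D receptor VDR fell by 1.89 on the log2 scale.

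Of 5891 long non-coding RNAs tested 2314 rose and 696 fell, with a median log2 fold change of 0.61, against 6435 and 6503 of 16251 protein-coding genes with a median of 0.02. Among those whose mean CPM had a log2 of at least 2, 256 of 436 long non-coding RNAs rose and 119 fell, and 4286 of 11173 protein-coding genes rose and 5621 fell. Their share of all counts was 1.49% to 1.54% in vemurafenib libraries and 0.97% to 1.00% in DMSO libraries. A gene with few counts enters the test only if enough libraries hold it, so a rare RNA that is present in 1 group alone had to differ. Clustered histone genes, whose normal messages carry no poly(A) tail, rose in 31 of 55 and fell in 13; by the rule for named genes the largest changes were H2AC11 at 3.21 and H3C14 at 3.14, and copies of these genes are close to identical.

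By the same rule, which takes the largest changes outside the ERK, cell cycle and pigment lists, the genes with the highest fold changes were ANGPTL7, CD36, PRUNE2, COL21A1, PCSK2, GRIN2A, CCN3, ST6GALNAC2, MATN2, MYO3B, SCRG1, STK32A, JUN, P2RX7 and DLEU7. ANGPTL7, a secreted angiopoietin-like protein (chromosome 1, 11189341 to 11195981), measured 35.0, 34.0 and 33.3 CPM in vemurafenib cells and 0.0684, 0.112 and 0.106 CPM in DMSO cells (log2 fold change 8.41, SE 0.228, adjusted p = 2.93e-34). PCSK2, a protease that matures peptide hormones, stood at 82.6, 85.8 and 85.4 CPM with vemurafenib and 1.46, 1.18 and 1.48 CPM with DMSO (log2 fold change 5.95, SE 0.121, adjusted p = 1.59e-39). In both genes each vemurafenib value lay far above each DMSO value, and ANGPTL7 rested on 44 counts in all 3 DMSO libraries. P2RX7, an ATP-gated ion channel, rose by 4.93, the NMDA receptor subunit GRIN2A by 5.77 and the matrix protein CCN3 by 5.29, with 412.9 to 424.6 CPM in vemurafenib libraries and 9.78 to 11.5 CPM in DMSO libraries.

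At the other end stood CEMIP, LPL, IGFBP3, C4orf19, FST, SCAT8, LRATD2, SHISA2, ERCC6L, LINC00326, AJAP1, SLCO4A1, ITGA9, AMIGO2 and SIRPB1. IGFBP3, which binds insulin-like growth factors outside the cell (chromosome 7, 45912245 to 45921874), measured 1.72, 1.61 and 1.68 CPM in vemurafenib cells and 52.0, 55.1 and 50.0 CPM in DMSO cells (log2 fold change -4.97, SE 0.0866, adjusted p = 2.76e-42). LPL, the lipase that frees fatty acids from lipoproteins, stood at 0.936, 0.858 and 0.998 CPM with vemurafenib and 29.8, 29.1 and 29.2 CPM with DMSO (log2 fold change -4.97, SE 0.106, adjusted p = 1.37e-38). No value of either gene in 1 group came near the other group. Several of these 30 genes overlap an exon of a neighbour (PRUNE2, CEMIP, C4orf19, ST6GALNAC2, LRATD2, SLCO4A1, ITGA9, AMIGO2 and SIRPB1), and the strand setting of the counting is not given in the sources used here, so their counts may hold reads of the neighbour.

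**Figure D4:**
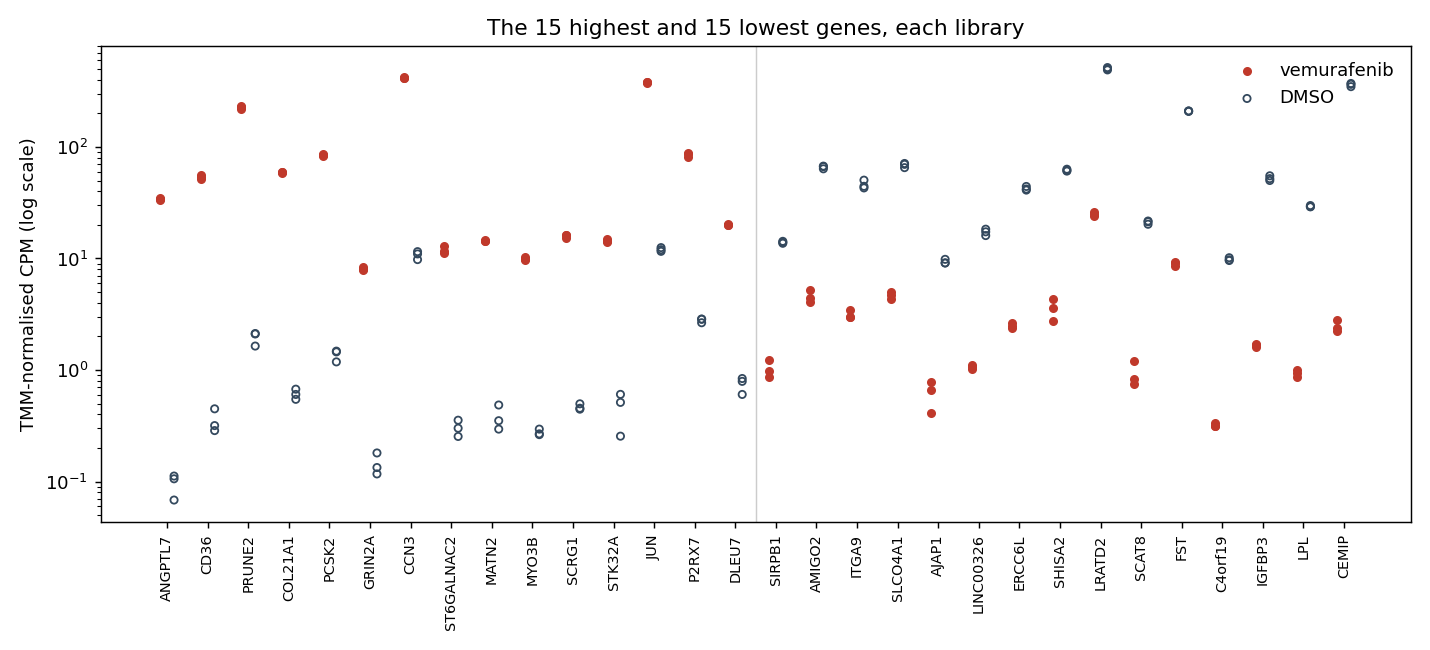
TMM-normalised CPM on a log axis of the 15 highest and 15 lowest genes in each of the 6 libraries, vemurafenib (filled) left of DMSO (open) for each gene. The groups do not overlap for any of the 30, which the rule that chose them required.

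The control-guide response was also set against that of cells with a guide to 1 subunit of Mediator. A difference of fold changes does not tell a changed level under the drug from a level already shifted in the DMSO cells of the knockout. Which of these holds was not tested, and knockout levels are given here for the targeted genes alone. The targeted messenger was lower but present: MED12 ran from 24.0 to 38.1 CPM in the 12 MED12 knockout libraries and from 118.0 to 152.0 CPM in the 6 control-guide libraries, MED19 from 11.4 to 14.3 CPM in MED19 knockout libraries and from 24.2 to 27.4 CPM in control-guide libraries, and MED23 from 16.1 to 21.9 CPM in MED23 knockout libraries and from 36.7 to 47.8 CPM in control-guide libraries. The difference of the log2 fold changes passed the test for 49.0% of genes against MED12 knockout cells, 32.6% against MED19 and 34.8% against MED23 knockout cells. The responses of both guides of a subunit were averaged. SEs and adjusted p-values of these differences rest on the spread between libraries of the same guide and treatment. Variation between guides does not enter them, and the control cells carried 1 guide. A response is called smaller in knockout cells where the difference had the sign of the control response. Responses that turned direction count as smaller too. The control response enters both terms, so its noise favours this outcome for every gene. Among all genes tested a smaller response was the common case by this rule. In MED12 knockout cells 43.9% responded less and 5.18% more, in MED19 27.1% less and 5.48% more, and in MED23 27.3% less and 7.46% more. Of the 30 genes just named, which were chosen for a large control response and so are prone to a smaller one elsewhere, 29 responded less in MED12 knockout cells, 26 in MED19 and 28 in MED23 knockout cells by a difference that passed the test. For CCN3 the control response exceeded that of MED12 knockout cells by 5.32 (SE 0.054), of MED19 knockout cells by 2.73 (SE 0.053) and of MED23 knockout cells by 4.24 (SE 0.054) on the log2 scale. For ANGPTL7 the excess was 6.22 over MED12 and 6.57 over MED23 knockout cells, and for COL21A1 5.93 over MED12 knockout cells. JUN exceeded MED19 knockout cells by 2.75. Among the genes that fell, the difference was -4.25 for IGFBP3 against MED23 knockout cells and -2.89 for C4orf19 against MED19 knockout cells.

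SCRG1, a gene of nerve and cartilage, was the only gene of the 30 with a larger response in knockout cells by a difference that passed the test, in MED19 knockout cells (difference -1.07, SE 0.33, adjusted p = 0.0097), and its differences from MED12 and MED23 knockout cells did not pass the test (0.93, adjusted p = 0.22, and -0.89, adjusted p = 0.07). Between control-guide and MED19 knockout cells the difference did not pass the test for CD36 (-0.20, SE 0.36, adjusted p = 0.745), PCSK2 (0.06, SE 0.32, adjusted p = 0.928) and SIRPB1 (-0.39, SE 0.17, adjusted p = 0.078), nor did it for ST6GALNAC2 against MED23 knockout cells (0.53, SE 0.23, adjusted p = 0.067). Over all genes tested the control response was higher for 24.2% and lower for 24.9% against MED12 knockout cells, 15.2% and 17.4% against MED19, and 16.2% and 18.5% against MED23 knockout cells. By list, the control response was lower than that of MED12 knockout cells for 38 of 38 ribosome biogenesis factors and 23 of 24 cytosolic chaperones, and higher for 36 of 50 lysosomal genes and 37 of 58 protocadherins. For MED23 knockout cells the same counts were 28, 20, 24 and 29, and for MED19 knockout cells 35, 21, 25 and 19. Interferon genes stood higher in 24 of 35 against MED12 knockout cells, in 8 against MED19 and in 6 against MED23 knockout cells, the last a share near that over all genes; whether the subunits differ from each other was not tested.

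**Figure D5:**
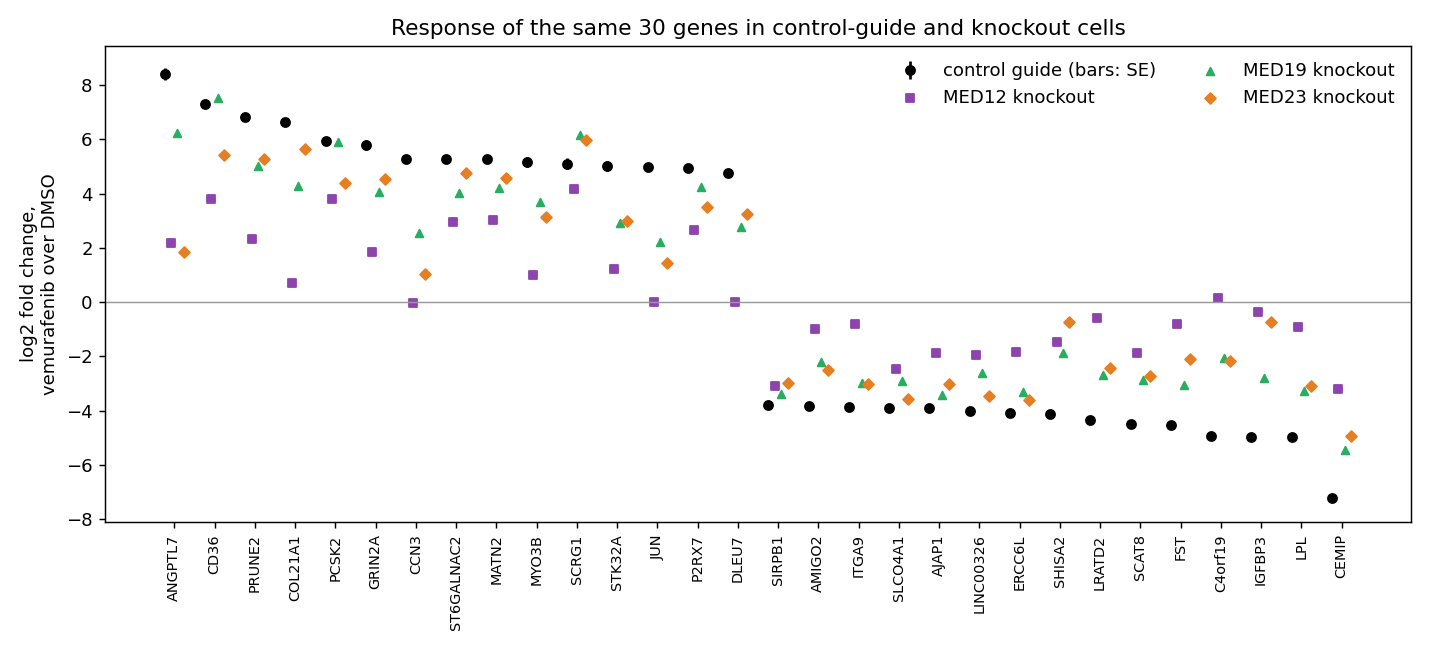
Log2 fold change, vemurafenib over DMSO, of the 15 highest and 15 lowest control-guide genes in control-guide cells (black, bars: SE) and in MED12, MED19 and MED23 knockout cells. For CCN3 the control response is 5.29 and all 3 knockout responses lie below it.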

How the data were processed

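Polyadenylated RNA was sequenced from stranded libraries, per the labels' protocols. The deposited values are raw read counts per gene, made with bcl2fastq, HISAT2 and HTSeq on hg38, per the submitters' processing notes; versions, annotation, strand setting and the handling of multiply mapped reads are not stated in them. All 42 libraries of the experiment carry the same batch label.

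Counts of the 42 libraries in 14 groups were fitted with edgeR 4.0.16 (R 4.3.3): filterByExpr with a minimum count of 10, TMM scaling, and the quasi-likelihood test with Benjamini-Hochberg adjustment over all 27453 genes. Standard errors are the absolute log2 fold change over the square root of F. Differences between responses were contrasts of the same fit, with the responses of both guides of a subunit averaged. On simulated counts for 24228 genes the control contrast recovered 100 of 100 genes changed 2-fold and 99 of 100 changed 1.5-fold, and called 10 of 24028 unchanged genes. All simulated libraries were drawn from the DMSO control-guide means, and the changed genes had a log2 CPM above 2. Far fewer genes changed than in the data, so the simulation does not test the scaling or rarer genes. On average over genes, replicates differed by more than counting noise (variance 4.09 to 8.68 times Poisson). Same-numbered libraries of the 2 groups did not visibly deviate together (r = -0.118, -0.179 and -0.031). With 3 libraries per group this cannot exclude that the numbers pair them.

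Gene lists (71 functional, 5 of cell markers) and the genes described were chosen with earlier results of these data known; they are described by counts and medians, with no test over a list. Named are the 15 highest and 15 lowest genes outside the ERK, cell cycle and pigment lists (coding or long non-coding, log2 of the mean CPM of at least 2, at least 30 counts in each group, groups apart), and per list up to 4 members with the largest change and a log2 of the mean CPM of at least 2, up to 2 of the other direction, and defining members. CPM was averaged over the 6 libraries before the log was taken. A gene high in 1 group alone can therefore pass, as GRIN2A did with 8.08 CPM under vemurafenib and 0.144 CPM under DMSO. Some genes the rule takes are not reported here. The 5 lysosomal genes with promoter stretches shown were chosen for the sequence and exon annotation of those stretches. Coordinates are from GENCODE 29 (58676 of 58721 identifiers matched), and symbols are current ones from a separate list of gene names (58207 matched). Alternatives were no low-count filter, DESeq2 size factors, total counts, DESeq2 1.42.0's Wald test, the replicate number as a block, the 6 libraries alone, no fold minimum, and leaving out each library; the 6 libraries alone with the block were added after seeing the data. Counting intervals are not given, since replicate error was larger on average over genes.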

Additional observations from a re-analysis of the deposited data

Results flagged for a closer look

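In each set of knockout cells, the 3 largest differences in response among the 30 genes with the highest or lowest control-guide response drew attention because the difference itself passed edgeR's quasi-likelihood test (log2 scale, control-guide response minus knockout response). Against MED12 knockout cells these were ANGPTL7 at 6.22, COL21A1 at 5.93 and CCN3 at 5.32. Against MED19 knockout cells they were C4orf19 at -2.89, JUN at 2.75 and CCN3 at 2.73. Against MED23 knockout cells they were ANGPTL7 at 6.57, IGFBP3 at -4.25 and CCN3 at 4.24. These 30 genes were picked on the control-guide response that enters each difference, so the sizes are a description of picked genes. Groups of 3 libraries are too small for a check of single outlying libraries.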

How the results depend on the processing

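The counts of genes higher and lower stayed within 1.5 times the reported ones under each alternative but 1: with no fold minimum 9839 genes were higher and 8322 lower, in place of 5073 and 3081. Leaving out 1 library gave 4844 to 4962 higher and 3000 to 3044 lower, and the replicate block 5068 and 3079. The block gave 6609 higher and 6819 lower for the difference from MED12 knockout cells, 4147 and 4771 for MED19, and 4435 and 5080 for MED23. The 6 libraries alone gave 4316 and 3056 of 23457 genes tested, and 4294 and 3057 with the block. Total counts raised each of 49 list medians by 0.19, which is more than 1 SD between replicates (SD of 0.018 to 0.48 by list) for 43 of them; the measure of spread was chosen after the medians had been seen. The medians of nuclear respiratory chain genes (0.038), cytosolic ribosomal proteins (0.14), growth factor ligands (0.096) and integrins (0.031) changed sign under total counts. DESeq2's size factors moved 1 median by more than 1 SD. Restricting lists to members whose mean CPM had a log2 of at least 2 turned that of growth factor ligands (0.028) and moved 16, among them the median of cytokines to -1.53, of matrix proteases to 0.74, of semaphorins to 0.80 and of sodium and calcium channels to 0.94. Among 185 named genes, B2M lost its call under DESeq2 (size factors or Wald test) and without vemurafenib library 1 (0.12) or 2 (0.12) or DMSO library 2 (0.11) or 3 (0.11), and MCOLN1 gained one under total counts (0.28) and without vemurafenib library 2 (0.14). CDH1, with 8 counts over the vemurafenib and 1 over the DMSO libraries, had no call but gained one with no low-count filter (2.87), under total counts (3.02), in DESeq2's Wald test (3.18), and without vemurafenib library 2 (3.19) or 3 (3.31) or DMSO library 2 (4.57); without 1 library its value ran from 1.57 to 4.57. No named gene with a call turned its direction. Of the differences from knockout cells, AJAP1 (MED19) lost its call without vemurafenib library 2 (-0.26) or DMSO library 2 (-0.43), MATN2 (MED23) without DMSO library 3 (0.51), and SIRPB1, ST6GALNAC2 and SCRG1 gained one under some alternatives; the cause was not tested. On average over genes the spread between libraries exceeded counting noise. Where 1 group holds few counts, as for ANGPTL7 with 44 in the DMSO libraries, counting can limit the precision too.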

Other observations

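Of 17 iron genes 8 rose and 5 fell: heme oxygenase HMOX1 rose by 1.69 and the ferritin heavy chain FTH1 by 1.10, and the transferrin receptor TFRC fell by 1.39 on the log2 scale. Of 36 genes of the NRF2 and glutathione list 18 rose and 16 fell, with MGST1, a microsomal glutathione transferase, at -1.65, NQO1, a quinone reductase, at -1.38 and GCLM, of glutathione synthesis, at -1.32. ABC transporters rose in 24 of 40 and fell in 8, ABCB4, a phospholipid exporter, by 2.34. In the circadian clock 8 of 21 genes rose and 7 fell, shares near those of all genes tested, and under scaling by total counts 11 rose and 3 fell; DBP, an output factor of the clock, rose by 1.67, and NPAS2, a partner of BMAL1, fell by 2.79 on the log2 scale. Of 24 cilium genes 17 rose and 5 fell, with IFT81 at 1.24.

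Of 31 actin and myosin genes 12 rose and 18 fell, and under scaling by total counts 13 rose and 13 fell: the crosslinker ACTN1 fell by 2.15 on the log2 scale, while MYLK, the myosin light chain kinase, rose by 2.79, smooth muscle actin ACTA2 by 2.02, MYL9 by 1.60 and TAGLN by 1.46. ESRP1, a splicing factor of epithelial cells, rose by 4.38, to 13.1, 14.4 and 13.7 CPM in vemurafenib libraries, against 0.752, 0.561 and 0.675 CPM in DMSO libraries, while the epithelial cadherin CDH1 averaged 0.0229 CPM with vemurafenib and 0.00208 CPM with DMSO.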
